A study of Mus musculus with 8 samples.

Results

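Imprinted genes are transcribed mainly or only from the allele inherited from 1 parent. The data described here are the levels of 32 of them, chosen by symbol as well-known members of 15 imprinted domains, in developing mouse sympathetic ganglia with and without a normal supply of the LIM-homeodomain factor ISL1. Of the 32 genes, 19 are counted here as expressed from the paternal allele and 11 from the maternal allele. The other 2 (*Grb10* and *Gnas*) are counted as expressed from an allele that depends on tissue or product. Tissue can matter for others too, as for *Ube3a*, counted as maternal, which is maternally expressed in neurons. The E11.5 table holds 13506 genes and has a row for 31 of the 32, and the E14.5 table holds 13413 genes and has a row for 29 of them.

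The study compared RNA of dissected sympathetic ganglia between genotypes at 2 stages, with 2 libraries per genotype and 8 in all. At E11.5, *Isl1* CKO embryos (Wnt1-Cre;*Isl1* f/f) were compared with control embryos (Wnt1-Cre;Isl1+/+), both with a Rosa26-tdTomato reporter by which the ganglia were found. Wnt1-Cre acts in the neural crest and its descendants, so the crest-derived cells of the ganglion carry the deletion and its vessels and blood do not. At E14.5, hypomorphic embryos (*Isl1* f-neo/f-neo), in which every cell carries the weakened alleles, were compared with wildtype embryos. For each RNA sample, 10 or more embryos of a genotype were combined, and the labels name neither sex, litter nor batch. The 2 stages therefore differ in allele and control genotype as well as in age. The deposited tables give 1 pooled FPKM value (fragments scaled by transcript length and library size) per genotype, so no spread between libraries and no depth was known, no test was made, and a difference below has no replicate check.

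In imprinting, marks of DNA methylation set in egg or sperm are kept at control regions through development, and each such region directs 1 parental copy of several neighbouring genes. Many paternally expressed genes favour growth of the embryo, as the growth factor *Igf2* does, and several maternally expressed genes restrain it, as the IGF2-clearing receptor *Igf2r* does. A group of imprinted genes that includes *H19*, *Igf2*, *Dlk1*, *Mest*, *Plagl1*, *Peg3* and *Gnas* is known for being switched on together in embryonic tissue and down after birth, and other members, such as *Ndn* and *Magel2*, are known chiefly from neurons. FPKM does not tell the alleles apart, so the values below are totals over both copies.

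*Isl1* itself was listed at 133 FPKM in control and 40.0 FPKM in CKO ganglia at E11.5, and at 162 FPKM in wildtype and 83.1 FPKM in hypomorphic ganglia at E14.5. The sum over all genes was 476289 FPKM in control and 617263 FPKM in CKO ganglia, and 448989 and 440939 FPKM at E14.5. Genes of red blood cells took 2.29% of the sum in control and 11.2% in CKO ganglia, against 1.26% and 1.55% at E14.5, although *Hbb-y*, an embryonic globin, was listed at 7552 FPKM in control and at exactly 0 in CKO ganglia. The CKO value for that gene may be a failed estimate and was not read as an absence. Because the 2 tables were normalized separately, levels of different stages are set side by side here and were not tested.

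Several imprinted genes were among the most abundant transcripts of the ganglion. In control ganglia at E11.5, 10 of the 31 stood at 100 FPKM or more and 12 lay in the top 10% of all genes, and the same numbers, 10 and 12, held in wildtype ganglia at E14.5. *Gnas*, which encodes the stimulatory G protein alpha subunit, led the order with 2997 FPKM at E11.5 and 4337 FPKM at E14.5 in ganglia with normal *Isl1*, followed by *Nnat*, a small membrane proteolipid, with 699 and 1089 FPKM. *Igf2* (374 FPKM), *H19* (360 FPKM) and *Grb10* (353 FPKM) came next at E11.5 and lay so close together that their order could not be read. At the other end, in ganglia with normal *Isl1*, 11 members stood under 10 FPKM at the younger stage and 6 at the older, among them *Rtl1*, *Usp29* and *Peg12*. *Ascl2*, a trophoblast transcription factor, had no row at either stage, which was read as below the table's limit of 1 FPKM in both genotypes. *Phlda2* and *Kcnq1ot1* had no row at E14.5 and were read likewise. A missing row may have another reason. *Mrpl23*, a gene beside the *Igf2-H19* domain, was at 81.4 and 111 FPKM at E11.5 and had no row at E14.5. Summed, the members came to 6234 FPKM in control and 5642 FPKM in CKO ganglia, 1.31% and 0.914% of all FPKM, and to 8841 FPKM in wildtype and 9062 FPKM in hypomorphic ganglia, 1.97% and 2.06%.

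**Figure D1:**
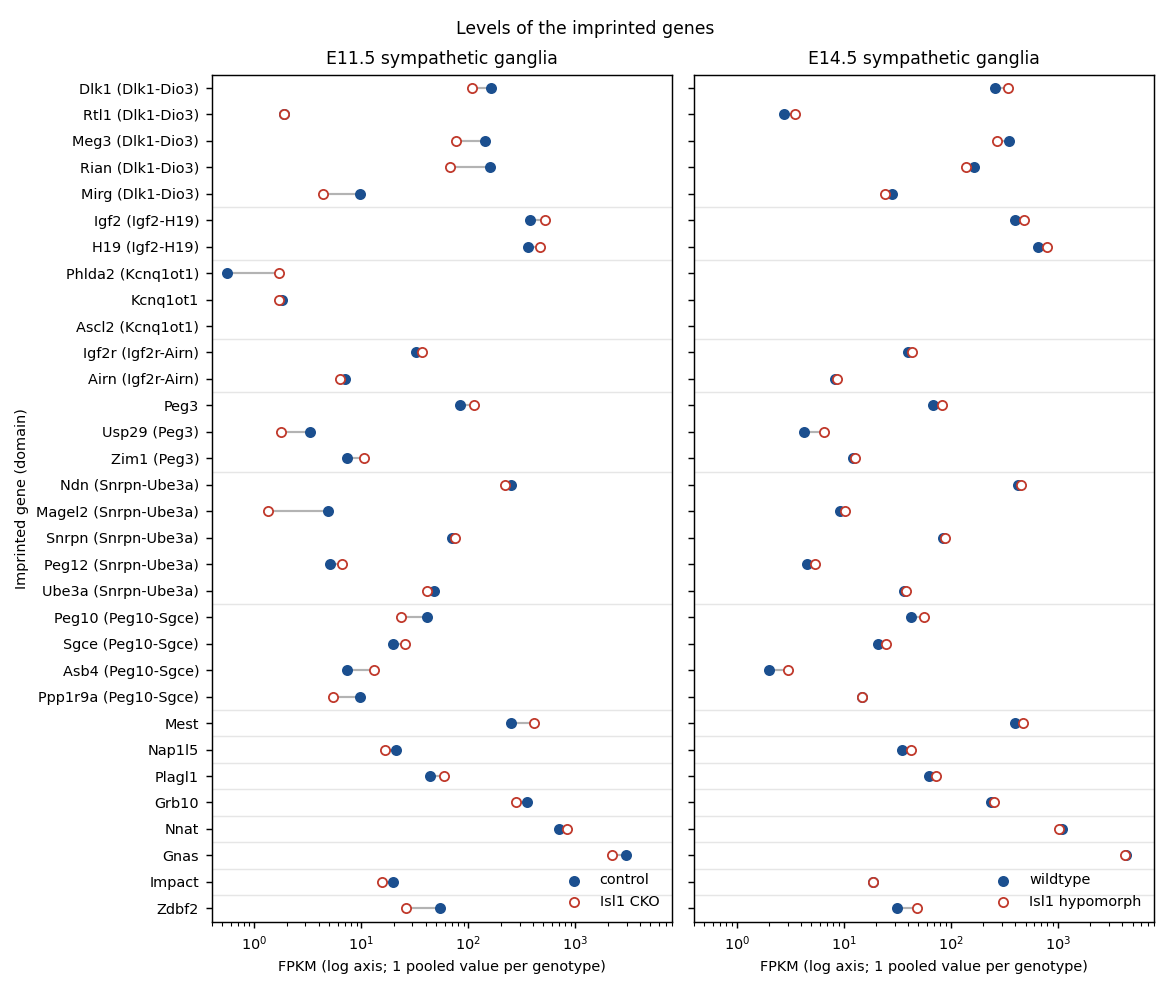
FPKM of the 32 imprinted genes on a log axis, ordered by domain, with E11.5 on the left and E14.5 on the right. Filled points are control or wildtype ganglia, open points are *Isl1* mutant ganglia, each point is 1 pooled value of 2 libraries, and a gene without points had no row. The pairs lie farther apart at E11.5, where *Magel2* goes from 4.82 to 1.33 FPKM, than at E14.5, where the widest pair is *Zdbf2* with 31.2 and 48.4 FPKM.

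Differences were expressed as the log2 ratio of FPKM + 0.1, mutant over control, which understates the change of genes with few FPKM, and a gene was counted as lower or higher when the ratio reached 1.5-fold. In *Isl1* CKO ganglia at E11.5, 8 of the 31 members (25.8%) were at least 1.5-fold lower, against 12.9% of all genes. The 8 were *Meg3*, *Rian*, *Mirg*, *Usp29*, *Magel2*, *Peg10*, *Ppp1r9a* and *Zdbf2*, and the first 3 are neighbouring transcripts read from the same strand of a single domain. Higher by that measure were 3 members (9.68%), *Mest*, *Asb4* and *Phlda2*, against 18.9% of all genes. *Phlda2*, at 0.557 FPKM in control, has a row only through its CKO value, which fixed its direction. With 1 FPKM or more required in both genotypes, 2 members were higher, against 15.5% of all genes. The members' median log2 ratio was -0.15, beside 0.05 for all genes, whose middle 50% lay between -0.31 and 0.45. Of the members 13 (41.9%) had a ratio above 0, as did 53.9% of all genes, and 13 fell into the lowest 25.0% and 6 into the highest 25.0% of all ratios.

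These counts move with the scale of the columns. When the 2 columns were rescaled to the same sum without the red blood cell genes, 11 members were lower and 2 higher, beside 22.5% and 12.2% of all genes, and the median of all genes went from 0.05 to -0.18. Without small RNA genes in the sum, 14 were lower and 1 was higher, beside 31.3% and 9.17% of all genes, with the median of all genes at -0.33. The sign of the ratio at E11.5 turned in at least 1 rescaling for *H19*, *Igf2r*, *Nnat*, *Peg12*, *Sgce* and *Snrpn*, so the direction of these 6 at that stage depends on the scale chosen. None of the 8 lower members changed sign in the alternatives that were run. At E11.5 the centring and both rescalings moved ratios downward, and a pseudocount or minimum cannot turn a sign. The signs of these 8 therefore could not turn, so this is no check of them.

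In hypomorphic ganglia at E14.5 the ratios were far smaller over the whole table, with the middle 50% of all genes between -0.11 and 0.13. No member was 1.5-fold lower, where 2.12% of all genes were, and 2 of 29 (6.90%), *Usp29* and *Zdbf2*, were 1.5-fold higher, where 2.89% of all genes were. The members' median was 0.16, beside 0.003 for all genes. A ratio above 0 was seen for 22 of the 29 (75.9%), against 50.7% of all genes, and 15 (51.7%) lay in the highest 25.0% of all ratios. The lowest 25.0% held 3 members, and these were *Meg3*, *Rian* and *Mirg*. These last counts were chosen after the values had been seen. They were 15 and 3 also in the 3 rescaled or centred versions of the table. Such versions shift all ratios nearly alike and can hardly change a gene's rank, so this is no check of the counts.

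**Figure D2:**
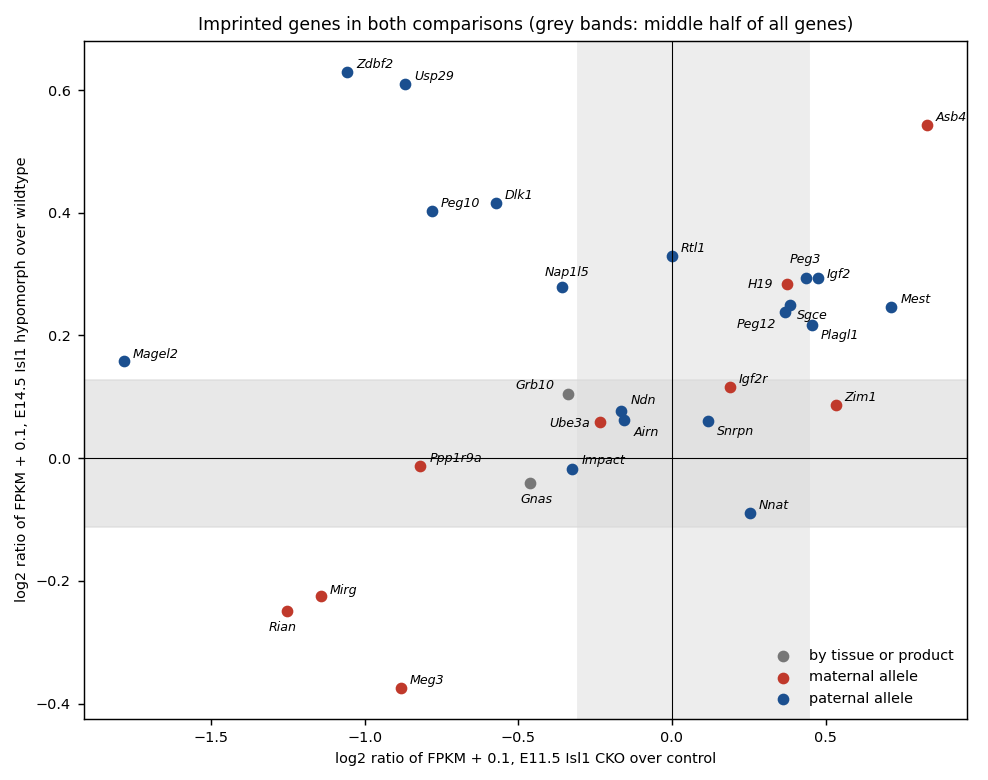
Log2 ratio of FPKM + 0.1 at E11.5 (CKO over control, horizontal axis) against that at E14.5 (hypomorph over wildtype, vertical axis) for the 29 imprinted genes with a row at both stages, coloured by the allele known to be expressed. The grey bands span the middle 50% of all genes at each stage, from -0.31 to 0.45 and from -0.11 to 0.13. Most blue points lie above the horizontal band, and *Meg3*, *Rian* and *Mirg* are the 3 points below it.

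Put together over the 29 genes listed at both stages, 11 had a ratio above 0 at both, 6 below 0 at both, 11 below 0 at E11.5 and above 0 at E14.5, and 1, *Nnat*, the opposite. The 4 shares were 37.9%, 20.7%, 37.9% and 3.45% of the members, beside 27.4%, 23.8%, 23.7% and 25.2% of the 12728 genes with a row in both tables. The 11 that stood below 0 and then above 0 were *Airn*, *Dlk1*, *Rtl1*, *Usp29*, *Grb10*, *Ndn*, *Magel2*, *Ube3a*, *Peg10*, *Nap1l5* and *Zdbf2*, but *Rtl1* was level at E11.5 and *Airn*, *Ndn* and *Ube3a* lay within the middle 50% of all genes at both stages. Genes of 1 domain are not independent in these counts, since neighbours can share enhancers and control regions, and the 6 genes whose sign at E11.5 turned with the scale are counted as deposited.

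By parental allele, most paternally expressed members had a higher value in hypomorphic than in wildtype ganglia. At E14.5, 16 of 18 had a ratio above 0, 13 (72.2%) lay in the highest 25.0% and 0 in the lowest 25.0% of all genes, and their median was 0.25. The 9 maternally expressed members had a median of 0.06, with 2 in the highest and 3 in the lowest 25.0%, and without *Meg3*, *Rian* and *Mirg* the remaining 6 had a median of 0.10. At E11.5 the 19 paternally expressed members had a median of -0.09 (0.12 over those with 5 FPKM or more in either genotype). Of them 4 (21.1%) were lower and 1 (5.26%) was higher by 1.5-fold. The 10 maternally expressed members had a median of -0.02 (-0.23 with the same minimum). Of these, 4 (40%) were lower and 2 (20%) higher, beside 12.9% and 18.9% of all genes. Which allele had the higher median at E11.5 thus depended on that minimum. Without the same 3 RNAs the maternal median at E11.5 was 0.38 over 7 genes. The difference between the alleles was described by these counts and was not tested. It covers the members only. The wider list of imprinted genes described below, with a median of -0.02 at E14.5, was not split by allele. By product, the 6 noncoding members had medians of -0.52 at E11.5 and -0.22 at E14.5 (5 genes), and the protein-coding members had medians of -0.0008 (25 genes) and 0.23 (24 genes).

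In the *Dlk1-Dio3* domain on chromosome 12, the 3 maternally expressed RNAs were below the control at both stages. The domain holds the paternally expressed genes *Dlk1*, a transmembrane protein of the Notch ligand family at chr12:110691033-110701546 of mm9, and *Rtl1*, a retrotransposon-derived protein. From its maternal copy come *Meg3* (chr12:110779211-110809936), a long non-coding RNA, *Rian* (chr12:110842155-110899919), the host of box C/D snoRNAs, and *Mirg* (chr12:110973191-110987665), the host of a cluster of microRNAs. The 3 maternal RNAs are read in the same direction, one after the other.

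*Meg3* was listed at 141 FPKM in control and 76.6 FPKM in CKO ganglia at E11.5, a log2 ratio of -0.88, and at 351 and 271 FPKM at E14.5, a ratio of -0.37. *Rian* went from 160 to 67.1 FPKM at E11.5, 2.39-fold lower (-1.25), and from 164 to 138 FPKM at E14.5 (-0.25). *Mirg*, the least abundant of the 3, went from 9.77 to 4.37 FPKM (-1.14) and from 28.4 to 24.3 FPKM (-0.22). In every case the mutant value was the smaller one, and at E11.5 the 3 ratios lay between the 2.99th and the 6.30th percentile of all genes. At E14.5 they lay between the 4.79th and the 11.7th percentile, although none reached 1.5-fold.

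The paternally expressed genes of the domain did not follow them at E14.5. *Dlk1* was listed at 162 FPKM in control and 109 FPKM in CKO ganglia (-0.57, just under the 1.5-fold limit) but at 260 FPKM in wildtype and 346 FPKM in hypomorphic ganglia (0.42). *Rtl1* was at 1.91 and 1.90 FPKM at E11.5 and at 2.78 and 3.51 FPKM at E14.5 (0.33), and part of its span is covered by microRNA genes read from the opposite strand, which an unstranded count would add to it. The FPKM ratio of *Dlk1* to *Meg3* was 1.14 in control and 1.42 in CKO ganglia, and 0.740 in wildtype and 1.28 in hypomorphic ganglia. Within 1 genotype this ratio does not depend on the scaling of the column, so at E14.5 the balance between the paternal protein gene and the maternal RNA differed by more than at E11.5. *Rian* relative to *Meg3* was 1.13 and 0.876 at E11.5 and 0.467 and 0.509 at E14.5.

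Among the neighbours beyond the domain at E11.5, the 4 flanking genes with a row, *Wars*, *Wdr25*, *Ppp2r5c* and *Dync1h1*, lay between -0.49 and 0.22, above the 3 maternal RNAs. At E14.5 the 6 flanking genes lay between -0.40 and 0.04, which spans the ratios of the 3 RNAs. *Slc25a47*, at 1.32 FPKM in wildtype and 0.974 FPKM in hypomorphic ganglia (-0.40), was below *Meg3*, and *Dync1h1* (-0.23) and *1700001K19Rik* (-0.21) were close to *Mirg*. *Begain*, an imprinted gene next to *Dlk1* that is no member, was at 4.96 and 3.56 FPKM at E11.5 (-0.46) and 12.5 and 12.4 FPKM at E14.5 (-0.02). *Dio3*, which encodes the enzyme that inactivates thyroid hormone at the far end of the domain, had a row only at E14.5, with 2.08 FPKM in wildtype and 3.16 FPKM in hypomorphic ganglia (0.58).

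**Figure D3:**
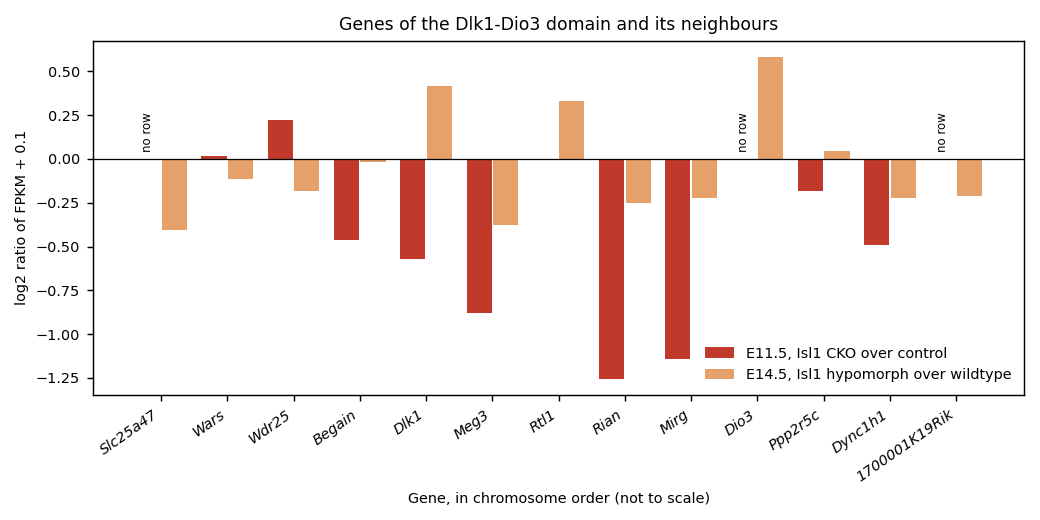
Log2 ratio of FPKM + 0.1, mutant over control, for the genes of the *Dlk1-Dio3* domain and its neighbours in chromosome order. There is 1 bar per stage, and "no row" where a gene was not listed, which was read as below the table's limit. At E11.5 *Meg3*, *Rian* and *Mirg* reach -0.88, -1.25 and -1.14. At E14.5 the bars of *Dlk1*, *Rtl1* and *Dio3* point up and those of *Meg3*, *Rian* and *Mirg* point down.

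Because *Dlk1* and *Meg3* are read from opposite parental copies in the same direction, the 250 bases before each start site are shown, from RefSeq on GRCm38.p6, plus strand, with the cAMP response element TGACGTCA in capitals. A RefSeq window was found for 27 of the 32 members.
Dlk1, chr12:109452573-109452822: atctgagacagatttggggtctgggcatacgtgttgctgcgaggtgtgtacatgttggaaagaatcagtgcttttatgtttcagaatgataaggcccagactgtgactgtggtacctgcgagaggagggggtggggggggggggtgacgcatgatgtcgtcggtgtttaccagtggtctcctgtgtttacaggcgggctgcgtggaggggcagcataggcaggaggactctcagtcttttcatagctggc
Meg3, chr12:109540746-109540995: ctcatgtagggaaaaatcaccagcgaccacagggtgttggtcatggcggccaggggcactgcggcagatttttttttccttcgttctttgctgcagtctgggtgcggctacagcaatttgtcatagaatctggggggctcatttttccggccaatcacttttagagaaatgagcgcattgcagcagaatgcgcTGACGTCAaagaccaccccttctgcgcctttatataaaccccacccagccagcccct
The palindrome TGACGTCA reads the same on both strands. It is in the *Meg3* window and not in that of *Dlk1*, and among the 27 members it was also found for *Peg3* and, at another start site, for *Zdbf2*. Of all 32851 RefSeq windows of that length 1.55% hold it. The letters CTAATG, a core of LIM-homeodomain sites searched on both strands, were in the first window of 1 member, *Snrpn*, and in 6.36% of all windows. GCCATNTT, the core of YY1 sites searched likewise, was in that of 1 member, *Ube3a*, and in 3.91% of all windows. A match is a run of letters and no evidence of binding. The member windows had a median GC content of 54.8% and 10 CpG, beside 52.4% and 6 CpG for all windows.

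The tables also list short RNA genes that lie inside these domains, 38 in all, of which 32 are in *Dlk1-Dio3*. Of the 32, 8 lie within *Mirg*, 7 within *Rian* (5 of them snoRNAs) and 12 within the span of *Rtl1*. The libraries were made from polyadenylated RNA, and such genes are shorter than the fragments sequenced, so their FPKM reflect reads of the host transcript or of precursors and not mature microRNAs. At E11.5 there were 23 such rows in the domain, with 2 listed at 0 in control and 11 listed at 0 in CKO ganglia, against 55 and 102 of the 286 small RNA rows of the whole table. At E14.5 there were 24 rows, with 7 listed at 0 in wildtype and 0 in hypomorphic ganglia, against 68 and 0 of 287. The deposited E14.5 table contradicts itself on the direction of rows listed at 0, so it is uncertain which genotype these zeros belong to, and no sum is given for that stage. At E11.5 the rows summed to 912 FPKM in control and 541 FPKM in CKO ganglia. A value of exactly 0 in rows as short as these may be a failed estimate, and no direction was read from it.

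For the short genes with the highest mean FPKM of each domain, values jumped between columns. *Mir3072*, within *Mirg*, was at 70.3 and 182 FPKM at E11.5 and 324 and 377 FPKM at E14.5, while *Mir377*, also within *Mirg*, was at 51.0 FPKM in control and listed at 0 in CKO ganglia, then at 198 and 122 FPKM. At E14.5, where neither of these neighbours inside 1 host was listed at 0, they went opposite ways. The snoRNA genes *AF357425* and *AF357426* within *Rian* were at 183 and 212 FPKM in control ganglia and at 0 and 60.5 FPKM in CKO ganglia, and *DQ267100* and *DQ267102* had a row only at E14.5, with 52.1 and 62.1 FPKM in wildtype and 200 and 454 FPKM in hypomorphic ganglia. *Mir675* within *H19* was listed at 0 in control and 49.0 FPKM in CKO ganglia, and *Mir483* within *Igf2* at 52.9 and 110 FPKM at E14.5. In the *Snrpn-Ube3a* domain, 4 genes of the *Mir344* family had rows, and *Mir344g*, with the highest mean, was at 88.1 FPKM in control, listed at 0 in CKO, and at 61.4 and 175 FPKM at E14.5. *Mir344-2* had a row only at E14.5, with 98.1 and 31.9 FPKM, and *Mir344f* and *Mir344c* only at E11.5, with 0 and 52.9 FPKM and with 5.43 and 8.57 FPKM.

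A mature product of each of the 8 microRNA genes named above is given from RefSeq on GRCm38.p6, with the seed (bases 2 to 8) in capitals, to show which share a seed.
mmu-miR-3072-5p: aGGGACCCcgagggagggcagg
mmu-miR-377-3p: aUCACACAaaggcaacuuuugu
mmu-miR-483-3p: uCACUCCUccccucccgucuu
mmu-miR-675-5p: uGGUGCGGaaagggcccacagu
mmu-miR-344-5p: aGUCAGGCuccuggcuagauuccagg
mmu-miR-344g-5p: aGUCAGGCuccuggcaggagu
mmu-miR-344c-5p: aGUCAGGCugcuggcuagaguac
mmu-miR-344f-5p: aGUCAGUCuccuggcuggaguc
The 5p products of *Mir344-2*, *Mir344g* and *Mir344c* share the seed GUCAGGC, and that of *Mir344f* differs from it. The seeds of the other 4 sequences shown occur once each among the mature products of the 38 genes.

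The *Igf2-H19* domain on chromosome 7 gave higher mutant values for both of its genes at both stages, except for *H19* at E11.5 in 1 rescaling. *Igf2* (chr7:149836673-149852721, mm9), the growth factor of embryo and placenta, was listed at 374 FPKM in control and 519 FPKM in CKO ganglia (0.47), and at 398 FPKM in wildtype and 487 FPKM in hypomorphic ganglia (0.29). *H19* (chr7:149761434-149764048), the non-coding RNA that shares enhancers with *Igf2* on the other parental copy, was at 360 and 467 FPKM at E11.5 (0.38, a sign that turned in 1 rescaling) and at 657 and 800 FPKM at E14.5 (0.28). The ratio of *Igf2* to *H19* hardly differed between genotypes, at 1.04 and 1.11 at E11.5 and at 0.605 and 0.609 at E14.5. The receptor *Igf2r*, which carries IGF2 to lysosomes, was at 32.2 and 36.7 FPKM at E11.5 (0.19, a sign that turned in the rescalings) and 40.3 and 43.7 FPKM at E14.5 (0.12). *Airn*, the non-coding RNA antisense to it, was at 7.01 and 6.28 FPKM (-0.15) and at 8.32 and 8.69 FPKM (0.06), and without strand its reads and those of *Igf2r* cannot be told apart where they overlap. In the *Kcnq1ot1* domain, *Phlda2*, a pleckstrin homology protein of the placenta, was at 0.557 FPKM in control and 1.72 FPKM in CKO ganglia (1.47, or 0.80 with a pseudocount of 1), and *Kcnq1ot1*, antisense to *Kcnq1*, at 1.80 and 1.69 FPKM (-0.09).

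Of the genes through which IGF2 acts, 13 of 16 had a row at E11.5, with 1 lower and 4 higher by 1.5-fold, beside 12.9% and 18.9% of all genes, and a median of -0.03, and 14 had a row at E14.5, with 0 past that limit in either direction and a median of 0.03. The 4 higher genes at E11.5 were IGF-binding proteins. *Igfbp4* was at 142 FPKM in control and 250 FPKM in CKO ganglia (0.81), *Igfbp5* at 173 and 263 FPKM (0.61), *Igfbp2* at 15.1 and 27.2 FPKM (0.85) and *Igfbp7* at 5.85 and 9.45 FPKM (0.68). The lower gene was *Igf2bp1*, an RNA-binding protein named for binding *Igf2* transcripts, at 27.8 and 14.2 FPKM (-0.97).

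In the *Peg3* domain, also on chromosome 7, adjacent paternally expressed genes parted at E11.5. *Peg3* (chr7:6656603-6683132), a Krueppel-type zinc finger protein, was at 83.2 and 113 FPKM at E11.5 (0.44) and at 68.2 and 83.6 FPKM at E14.5 (0.29). *Usp29*, a ubiquitin-specific peptidase that starts close to *Peg3* and is read the other way, was at 3.32 FPKM in control and 1.78 FPKM in CKO ganglia (-0.87) but at 4.23 FPKM in wildtype and 6.52 FPKM in hypomorphic ganglia (0.61). The ratio of *Peg3* to *Usp29* was 25.1 in control and 63.5 in CKO ganglia, and 16.1 and 12.8 at E14.5. *Zim1*, the maternally expressed zinc finger gene of the domain, was at 7.33 and 10.6 FPKM (0.53) and at 12.1 and 12.9 FPKM (0.09).

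The *Snrpn-Ube3a* domain, the mouse counterpart of the Prader-Willi and Angelman region, held both the steepest member and several flat ones. *Magel2* (chr7:69521865-69526526), a MAGE family protein, fell 3.63-fold at E11.5, from 4.82 to 1.33 FPKM (-1.78, or -1.32 with a pseudocount of 1), and was at 9.24 and 10.3 FPKM at E14.5 (0.16). Its neighbour and relative *Ndn*, necdin of postmitotic neurons, was at 247 and 221 FPKM (-0.17) and at 426 and 450 FPKM (0.08), so that the ratio of *Ndn* to *Magel2* was 51.3 in control and 166 in CKO ganglia against 46.1 and 43.6 at E14.5. *Snrpn*, the splicing protein SmN, was at 69.5 and 75.4 FPKM (0.12, a sign that turned in the rescalings) and 84.8 and 88.5 FPKM (0.06). *Peg12*, of the Frat family, was at 5.05 and 6.55 FPKM (0.37, a sign that turned in 1 rescaling) and 4.57 and 5.41 FPKM (0.24). *Ube3a*, the E3 ubiquitin ligase that is maternally expressed in neurons, was at 48.0 and 40.8 FPKM (-0.23) and at 36.8 and 38.4 FPKM (0.06).

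In the *Peg10-Sgce* domain on chromosome 6, the 4 members went different ways at E11.5. *Peg10* (chr6:4697306-4710514), a retrotransposon-derived protein, was at 40.8 FPKM in control and 23.7 FPKM in CKO ganglia (-0.78) and at 42.4 and 56.1 FPKM at E14.5 (0.40). *Sgce*, epsilon-sarcoglycan, which starts next to *Peg10* and is read the other way, was at 19.8 and 25.8 FPKM (0.38, a sign that turned in 1 rescaling) and at 20.8 and 24.7 FPKM (0.25). The ratio of these neighbours was 2.06 in control and 0.918 in CKO ganglia, and 2.04 and 2.27 at E14.5, so their order of abundance was inverted in the CKO column alone. *Asb4*, an ankyrin repeat and SOCS box protein, was at 7.40 and 13.2 FPKM (0.83) and at 2.02 and 2.99 FPKM (0.54). *Ppp1r9a*, the actin-binding protein neurabin of neurons, was at 9.63 and 5.42 FPKM (-0.82) and at 14.9 and 14.7 FPKM (-0.01, a sign that turned in the rescalings).

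The remaining members each stand for a domain of their own. *Zdbf2* (chr1:63319839-63361150), a zinc finger protein, went from 53.9 FPKM in control to 25.8 FPKM in CKO ganglia, 2.09-fold lower (-1.06), and from 31.2 FPKM in wildtype to 48.4 FPKM in hypomorphic ganglia (0.63), which is the highest ratio among the members at that stage. *Mest*, an alpha/beta hydrolase, was higher at E11.5 with 251 and 412 FPKM (0.71) and stood at 397 and 471 FPKM at E14.5 (0.25). *Plagl1*, a zinc finger transcription factor, was at 43.3 and 59.5 FPKM (0.46) and at 62.1 and 72.2 FPKM (0.22). *Mest* and *Plagl1*, with *Igf2*, *Peg3*, *Zim1* and *Asb4*, thus had mutant values above the control at both stages and under every scaling run.

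*Grb10*, an adaptor that dampens insulin and IGF1 receptor signalling, was at 353 and 279 FPKM (-0.34) and at 236 and 254 FPKM (0.10). *Gnas* was at 2997 and 2173 FPKM (-0.46) and at 4337 and 4216 FPKM (-0.04). *Nap1l5*, a nucleosome assembly protein nested in *Herc3*, was at 21.1 and 16.5 FPKM (-0.36) and at 35.2 and 42.8 FPKM (0.28). Of these 3, the E11.5 value was below the control each time, short of 1.5-fold. *Nnat*, nested in *Blcap*, was at 699 and 832 FPKM (0.25, a sign that turned in 1 rescaling) and at 1089 and 1023 FPKM (-0.09), and *Impact*, an inhibitor of the kinase GCN2, was at 19.7 and 15.7 FPKM (-0.32) and at 18.9 and 18.7 FPKM (-0.02, a sign that turned in the rescalings).

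Set beside genes around them, the members at E14.5 differed from their flanks in the counts. The flanking genes were up to 3 genes with a row on either side of each domain that are on none of the lists of imprinted genes. At E11.5, 9 of 85 were lower and 14 higher by 1.5-fold, beside 12.9% and 18.9% of all genes. Their median was 0.07, with 17 in the lowest 25.0% of all genes and 18 in the highest. At E14.5, 1 of 82 was lower and 3 were higher, beside 2.12% and 2.89% of all genes. Their median was -0.007, with 26 in the lowest 25.0% and 21 in the highest, where the members had 3 and 15 of 29. The difference between these counts was not tested, and imprinted neighbours are not independent of each other.

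A wider list of 49 other genes reported as imprinted in mouse had counts near those of all genes at E11.5. There 4 of the 32 with a row were lower and 7 higher, beside 12.9% and 18.9% of all genes, with a median of 0.18. At E14.5, 1 of 31 was lower and 1 higher, beside 2.12% and 2.89% of all genes, with a median of -0.02. *Cdkn1c*, a maternally expressed inhibitor of the cell cycle, rose at E11.5 from 340 to 766 FPKM (1.17) and was at 308 and 292 FPKM at E14.5. *Kcnk9*, a potassium channel gene, was lower at E11.5 with 91.2 and 26.7 FPKM (-1.77), as were *Inpp5f*, an inositol phosphatase, with 53.5 and 27.7 FPKM (-0.95) and *Slc38a4*, an amino acid transporter, with 108 and 59.7 FPKM (-0.85). *Dcn*, a matrix proteoglycan, was higher with 18.5 and 36.8 FPKM (0.99), *Pon2* with 5.47 and 10.6 FPKM (0.94) and *Osbpl5* with 6.72 and 10.8 FPKM (0.67). At E14.5 *Snurf*, which shares a transcript with *Snrpn*, was at 32.8 and 16.3 FPKM (-1.01), while *Snrpn* itself was at 84.8 and 88.5 FPKM, and how reads were divided between them is uncertain.

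A list of genes that set, keep, read or remove DNA methylation at imprinted regions had mostly lower values at E11.5. Of its 20 genes 18 had a row, and 8 were lower by 1.5-fold and 0 higher, beside 12.9% and 18.9% of all genes, with a median of -0.48. In the rescalings the share of all genes that were lower was 22.5% and 31.3%. *Dnmt1*, the maintenance DNA methyltransferase, went from 86.4 to 35.5 FPKM (-1.28), its partner *Uhrf1* from 92.1 to 35.2 FPKM (-1.38) and the helicase *Hells* from 59.9 to 28.9 FPKM (-1.05). These 3 are also known as genes of dividing cells. *Zfp445*, a zinc finger protein that binds imprinting control regions, went from 29.4 to 16.9 FPKM (-0.79), and *Smchd1*, a chromatin protein, was lower with a ratio of -0.68. The other 3 of the 8 were *Tet1*, *Tet2* and *Tet3*, with ratios of -0.73, -0.88 and -0.87, which oxidise methylated cytosine and so act toward removal of the mark. At E14.5, 0 of the 18 were lower and 2 were higher, beside 2.12% and 2.89% of all genes, *Hells* with 16.0 and 26.9 FPKM (0.75) and *Uhrf1* with 26.8 and 42.5 FPKM (0.67), and the median was 0.09. *Zfp57*, the best known reader of imprinted methylation, was at 24.1 and 17.1 FPKM (-0.49) and at 61.1 and 52.8 FPKM (-0.21). DNA methylation was not measured in these libraries.

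Markers of other cell types moved with the genotype, most of all at E11.5. In bulk ganglia, fewer cells of a type and less RNA per cell cannot be told apart. Mesenchyme markers had a median of 0.83 at E11.5 and 0.22 at E14.5, with 12 of 12 above 0 at both stages and summed levels of 774 and 1322 FPKM and of 1582 and 1762 FPKM, led by *Col1a1* (175 and 303 FPKM at E11.5) and *Col1a2* (193 and 352 FPKM). Neural crest and glial markers had medians of 1.17 and 0.12, with 10 of 10 and 9 of 10 above 0 and sums of 271 and 600 FPKM and of 461 and 527 FPKM. Endothelial markers had medians of 0.47 and 0.48, with 10 of 10 above 0 at both stages and sums of 71.2 and 93.9 FPKM and of 95.9 and 134 FPKM. Sympathetic neuron markers had medians of -0.39 and -0.17, with 8 of 10 and 6 of 10 below 0 and sums of 2890 and 2554 FPKM and of 4766 and 3933 FPKM. The 2 most abundant of them parted at E11.5. *Stmn2*, a neuronal microtubule protein, was at 598 and 433 FPKM at E11.5 and 1182 and 916 FPKM at E14.5. *Tubb3* was at 658 and 767 FPKM at E11.5 (0.22) and 1212 and 921 FPKM at E14.5 (-0.40).

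Markers of tissue outside the embryo were listed higher in the CKO column. Trophoblast and decidua markers had 7 of 15 rows at E11.5, with a sum of 2.65 FPKM in control and 74.8 FPKM in CKO ganglia. Of the CKO sum *Prl8a2*, a prolactin family hormone, made 48.4 FPKM, and at E14.5 these markers had 1 row. All 7 ratios were above 0, but most of these genes, such as *Prl8a2* (0.241 FPKM) and *Prl3b1* (0.226 FPKM), were under 1 FPKM in control. They have a row only through the CKO value, which fixed the direction of their ratio. The same holds for rows of other lists with a control value under 1 FPKM. Of 19 yolk sac markers 12 had a row at E11.5 and 11 at E14.5, with medians of 1.92 and 0.31, 12 of 12 and 9 of 11 above 0, and sums of 209 and 819 FPKM and of 444 and 524 FPKM. The sum was led by the matrix genes *Sparc* (129 and 369 FPKM at E11.5) and *Col4a1* (36.1 and 174 FPKM), which control ganglia also held. Among the others, *Lama1* was at 1.82 and 70.8 FPKM, *Fst* at 6.35 and 69.6 FPKM, and *Afp*, a defining gene of visceral yolk sac, at 1.89 and 3.30 FPKM. The study itself reports *Fst* as a BMP antagonist raised in the CKO, also by qPCR on cells sorted from ganglia. A higher *Fst* value is therefore not particular to yolk sac. Of 10 markers of mesonephros and gonad 4 had a row at E11.5, with sums of 9.22 and 59.1 FPKM. Most of the CKO sum came from the keratin genes *Krt8* and *Krt18*. *Wt1* was at 5.97 and 8.88 FPKM and *Gata4* at 0.42 and 5.67 FPKM. *Pax2*, *Pax8*, *Lhx1*, *Nr5a1*, *Emx2* and *Lhx9* had no row, and whether such tissue was present was not tested. Red blood cell markers had medians of 3.47 and 0.51, chromaffin markers -0.02 and 0.18, and skeletal muscle markers 0.64 and -0.15. *Igf2*, *H19*, *Mest*, *Peg3*, *Plagl1*, *Phlda2* and *Dlk1* are among the members known to be strongly expressed in embryonic mesenchyme or in placenta and yolk sac. The naming is not complete, and *Dlk1* was below the control at E11.5 (-0.57). The part of these cell types in the members' values was not tested. Of the members typical of trophoblast or placenta, *Ascl2* had no row in either table. *Phlda2* was at 0.557 FPKM in control and 1.72 FPKM in CKO ganglia, a row it has only through the CKO value. It had no row at E14.5.

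**Figure D4:**
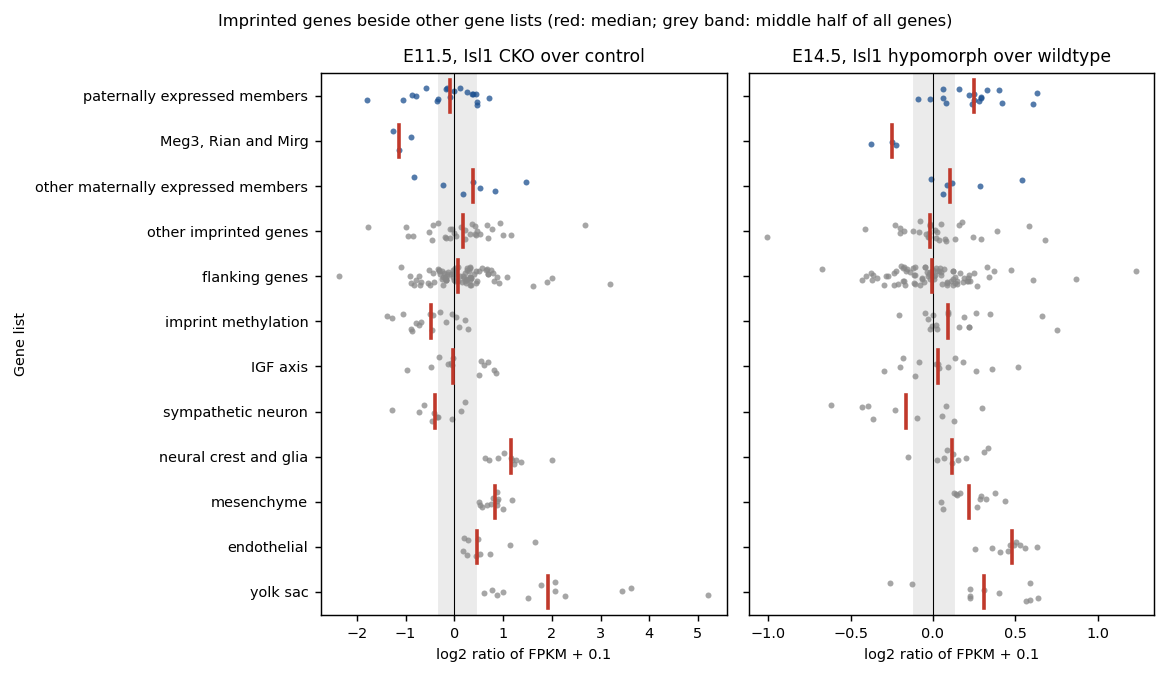
Log2 ratio of FPKM + 0.1, mutant over control, for every gene with a row in each list (dots), with the list's median as a red bar and the middle 50% of all genes as a grey band, at E11.5 on the left and E14.5 on the right. Blue dots are the imprinted members split by allele, with *Meg3*, *Rian* and *Mirg* set apart. At E14.5 the median was 0.25 for the paternally expressed members and -0.02 for the other imprinted genes. For mesenchyme, yolk sac, endothelial, glial and sympathetic neuron markers it was 0.22, 0.31, 0.48, 0.12 and -0.17. At E11.5 the median was -0.09 for the paternally expressed members and 0.18 for the other imprinted genes. For the same 5 marker lists it was 0.83, 1.92, 0.47, 1.17 and -0.39.

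Between the stages, some members stood at quite different levels in ganglia with normal *Isl1*. The FPKM ratio of E14.5 wildtype over E11.5 control was 2.91 for *Mirg*, 2.48 for *Meg3*, 1.92 for *Magel2*, 1.82 for *H19* and 1.72 for *Ndn*. It was 0.273 for *Asb4*, 0.580 for *Zdbf2* and 0.670 for *Grb10*, and 1.02 for *Rian*. *Rian* and *Meg3*, which are read one after the other, thus had different ratios. For *Zdbf2* the hypomorphic value (48.4 FPKM) lay close to the E11.5 control value (53.9 FPKM), while for *Meg3*, *Magel2* and *Ndn* the hypomorphic values were 271, 10.3 and 450 FPKM, beside 141, 4.82 and 247 FPKM in E11.5 control ganglia.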

How the data were processed

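Polyadenylated RNA of pooled ganglia was amplified and sequenced by the authors with paired reads. The authors obtained the FPKM values from Cuffdiff, which merged the 2 libraries of each genotype into 1 value, and the deposited tables leave out genes under 1 FPKM in both genotypes. The submitters' processing notes name Bowtie, TopHat 1.3.1 and Cuffdiff 1.3.0 and a fly genome build, whereas the methods of the study name mm9; gene symbols are of mouse. Whether strand was used in counting is not given in the sources used here. The deposited tables also hold the authors' log2 fold changes and p-values, which were not used.

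The members and all gene lists were chosen with earlier results of these data known. Ratios were log2 of FPKM + 0.1, mutant over control, within a table. A minimum of 1 FPKM in either genotype took out 0 genes, and 1.5-fold was counted. Named were all members and those of the other imprinted, imprint methylation and IGF lists at 1.5-fold or more with 5 FPKM or more in either genotype (at most 8 per list and stage). Also named were the 2 most abundant markers of cell type lists, of which some are printed, and the 6 small RNA genes with the highest mean per domain. *Begain*, *Dio3*, *Zfp57*, *Tet1*, *Afp*, *Lama1*, *Fst*, *Wt1*, *Gata4*, the flanking genes and the ratios between neighbours were chosen after their values were seen. Gene positions are of mm9 from GENCODE vM1 and cover 31 members. Domain order, flanking genes, windows and microRNAs are from RefSeq GRCm38.p6, in which 94.4% and 94.6% of symbols were found. Alternatives were pseudocounts of 1 and 0.01, no filter, 5 FPKM or more in either or 1 FPKM or more in both genotypes, centring on the median, rescaling without red blood cell or small RNA genes, and thresholds of 2-fold and 1.2-fold. The steps were tested on simulated data. Python 3.11.15, numpy 2.4.6, pandas 2.3.3 and matplotlib 3.10.9 were used. Depth is unknown, so no interval is given.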

Additional observations from a re-analysis of the deposited data

Results flagged for a closer look

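*Usp29* and *Zdbf2* passed 1.5-fold in opposite directions at the 2 stages, lower in E11.5 CKO and higher in E14.5 hypomorphic ganglia. With a pseudocount of 1, *Usp29* was at 0.52 at E14.5 and no longer past 1.5-fold. The log2 ratio at E14.5 minus that at E11.5 was 1.48 for *Usp29* and 1.69 for *Zdbf2*. The difference was not tested, since each genotype has 1 pooled value, and the stages differ in allele and control genotype too, which cannot be told apart from age.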

How the results depend on the processing

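Among the alternative values of counts and medians, 106 stayed near the reported value and 14 moved. The version without a filter was identical to the main one, since the filter took out 0 genes, so its values had to stay. The paternal median at E11.5, counted as staying, changed sign, from -0.09 to 0.12, with a minimum of 5 FPKM, where the maternal median was -0.23. Among those of single members 471 stayed and 1 moved. A member counted as staying when its shift was under 0.585, also where its sign turned, as for *H19*, *Igf2r*, *Nnat*, *Peg12*, *Sgce* and *Snrpn* at E11.5. The 1 that moved was *Phlda2* at E11.5, to 0.80 with a pseudocount of 1. With that pseudocount 1 member was higher at E14.5, beside 1.62% of all genes, as *Usp29* dropped to 0.52. Rescaling without small RNA genes gave 14 lower and 1 higher member at E11.5, beside 31.3% and 9.17% of all genes. The median was then -0.54 over all members, -0.45 over paternally and -0.41 over maternally expressed members, and -1.52 for *Meg3*, *Rian* and *Mirg*. A threshold of 2-fold gave 4 lower and 1 higher at E11.5, beside 4.83% and 8.42% of all genes. At E14.5 it gave 0 higher, beside 0.977%. With 1.2-fold, 13 were lower and 10 higher at E11.5, beside 27.5% and 34.8% of all genes. At E14.5, 1 was lower and 10 were higher by 1.2-fold, beside 9.01% and 12.2%. The counts in the highest and lowest 25.0% and the values of *Meg3*, *Rian* and *Mirg* as a set were added after seeing the data. No paired analysis was possible because the 2 libraries of a genotype are merged into 1 value, and for the same reason no library could be left out. Depth is unknown, so the error of genes under 10 FPKM, such as *Usp29*, *Magel2* and *Phlda2*, could not be stated.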
